A study of Homo sapiens with 8 samples.

Results

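The branch sites of 10 genes known as targets of mutant SF3B1 were examined in U2 IP-seq data from K562 cells, a human erythroleukemia line. The genes were MAP3K7, BRD9, DVL2, PPP2R5A, ORAI2, DLST, ERGIC3, ENOSF1, UQCC1 and TTI1, taken by their spans and strands on hg19, and every deposited read cluster lying wholly inside a span was kept. This gave 165 clusters of the 122826 distinct clusters in the series, with 470 distinct branch points. The cells had been engineered to express SF3B1 with a Flag tag, either with the K700E substitution (SF3B1-3xFlag K700E) or with the original sequence (SF3B1-3xFlag WT), so all groups share the tagged line. Complexes were isolated from nuclease-treated nuclear extract with an antibody to SF3A2 (3 K700E and 3 wild-type libraries) or to the Flag tag (1 K700E and 1 wild-type library). An SF3A2 antibody takes U2 particles with or without the tagged SF3B1, and the labels do not say how much untagged SF3B1 the cells hold or whether each line is 1 clone. Controls without antibody and the unpurified extract were not analysed here.

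SF3B1 is the subunit of the U2 snRNP that holds the duplex formed between U2 snRNA and the intron branch site, the sequence whose adenosine attacks the 5′ splice site in the first step of splicing. SF3A2 is another protein of the same particle. In cells with K700E, a substitution recurrent in myelodysplastic syndromes, many introns are known to use a cryptic 3′ splice site a short way upstream of the usual one, together with a branch point upstream of the usual one. Transcripts made in this way are often degraded by nonsense-mediated decay, and MAP3K7 and BRD9 are well-known examples with lower protein output.

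For every pairing of antibody and genotype the authors deposited 1 table of clusters, each with predicted branch points ranked from 1 (top) to 3, ties allowed. The SF3A2 tables pool 3 libraries each. The tables held 116273 clusters for SF3A2 K700E, 86103 for SF3A2 wild type, 73582 for Flag K700E and 69448 for Flag wild type. No read numbers accompany the positions and ranks, so depth is unknown, a cluster not listed may only be undersampled, and no value has a replicate error or a p-value. Bracketed ranges are 95% Wilson intervals and cover counting error only. A branch site that U2 did not bind cannot be told apart from one on a scarce transcript, and the tables hold no expression levels against which the cell line could be checked. Positions are printed as deposited on hg19, and their numbering (from 0 or from 1) is unknown. The tables carry no strand, so a cluster of an overlapping gene cannot be told apart by table content alone.

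Branch site clusters were found in 9 of the 10 genes. ENOSF1, related to the enolase superfamily of enzymes, had the most with 35 clusters between 0.67 and 0.713 Mb of chromosome 18. BRD9, a bromodomain subunit of the non-canonical BAF chromatin remodeler, had 26, and MAP3K7, the TAK1 kinase of TGF-β and NF-κB signalling, had 24. UQCC1, an assembly factor of mitochondrial complex III, also had 24. PPP2R5A, a regulatory subunit of the phosphatase PP2A, had 15 and DVL2, a Dishevelled protein of Wnt signalling, had 14. DLST, the succinyltransferase subunit of the 2-oxoglutarate dehydrogenase complex, had 11. ERGIC3, which cycles between the endoplasmic reticulum and the Golgi, and TTI1, a partner of TELO2 in the maturation of PIKK kinases, had 8 each. ORAI2, a store-operated calcium channel subunit, had 0 clusters in each of the 4 tables between 102.073 and 102.097 Mb of chromosome 7.

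The authors' cluster identifiers mark some clusters as 3′ or 5′ splice site clusters, by criteria unknown here, and the genes differed in how many carried a mark. The 3′ splice site mark was carried by 84 of the 165 clusters (50.9%, 43.3 to 58.4%), against 58.6% of all clusters in the series. All 14 DVL2 clusters carried it, as did 12 of 15 in PPP2R5A, 9 of 11 in DLST and 7 of 8 in TTI1. In UQCC1 only 2 of 24 did and 20 had no mark. In BRD9 8 of 26 and in ENOSF1 12 of 35 carried the 3′ mark, and unmarked clusters were the more numerous class in both genes. Unmarked clusters were listed in all 4 tables less often than those with the 3′ mark, 30 of 68 (44.1%, 32.9 to 55.9%) against 64 of 84 (76.2%, lower bound 66.1%), and the intervals did not overlap. In the series these shares were 37.8% and 54.0%.

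**Figure D1:**
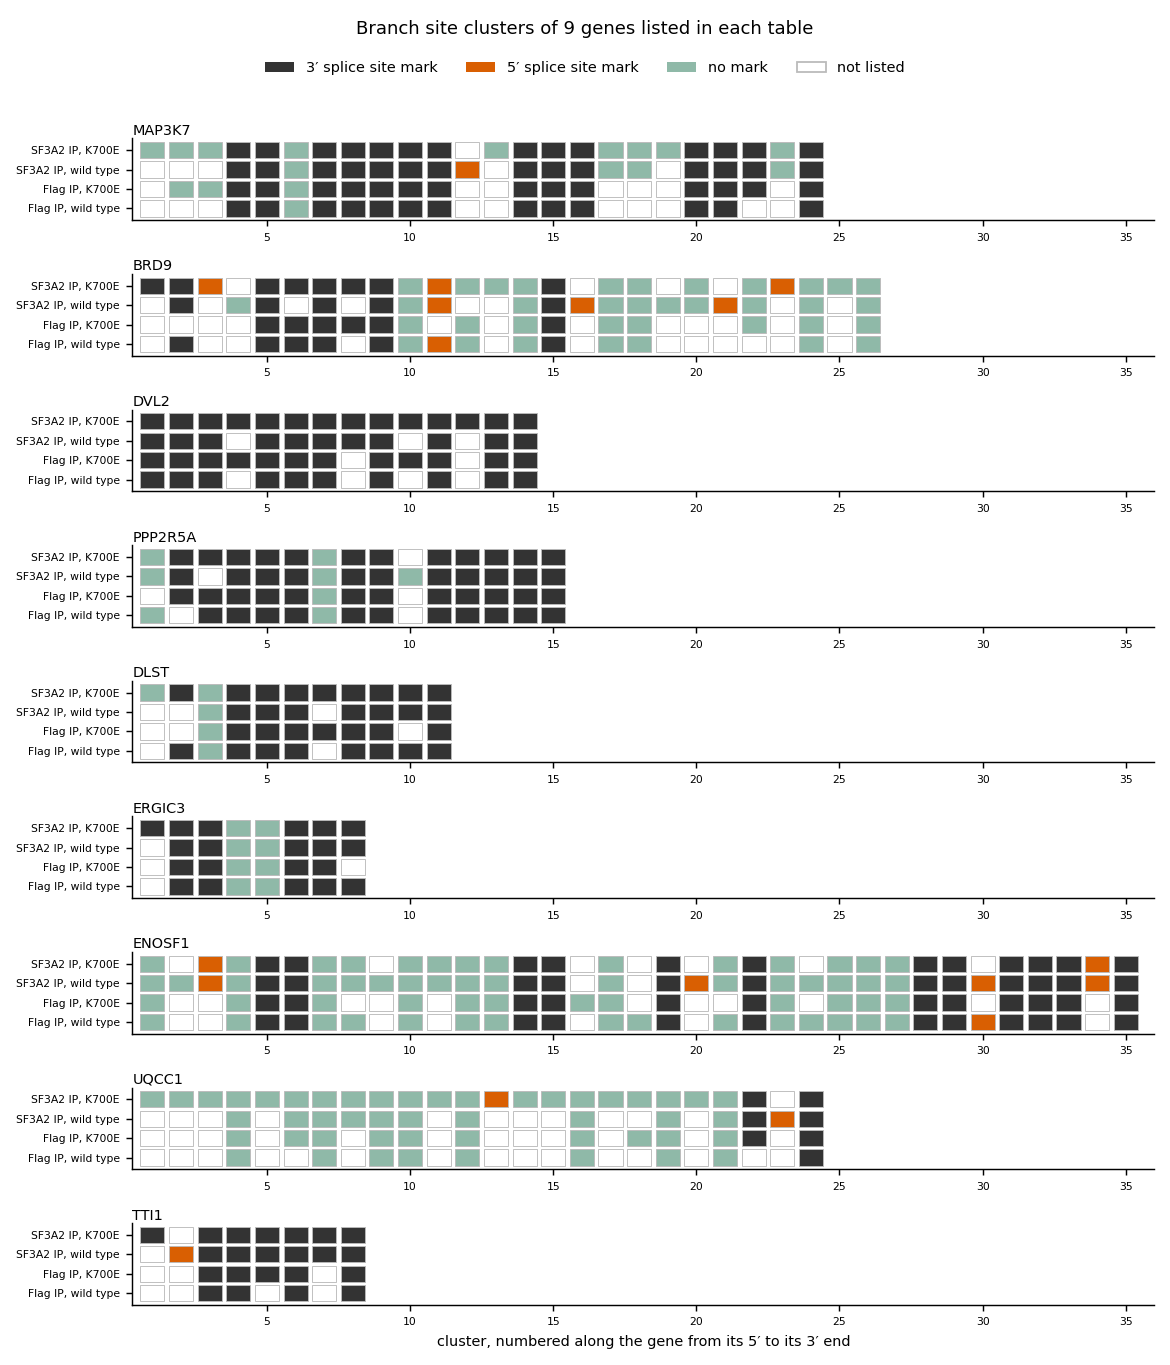
Clusters of the 9 genes, numbered on the x axis from the 5′ to the 3′ end of the gene, with a row for each table and a filled box where the cluster was listed, coloured by the authors' mark. Of 165 clusters, 94 were filled in all 4 rows, and the UQCC1 row of SF3A2 K700E was the fullest of that gene, with 23 of 24 clusters.

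Altogether 94 of the 165 clusters (57.0%, 49.3 to 64.3%) were listed in all 4 tables, against 45.3% of all clusters in the series. The share was 6 of 8 in ERGIC3, 11 of 15 in PPP2R5A and 10 of 14 in DVL2. It was 9 of 24 in UQCC1 and 10 of 26 in BRD9. The SF3A2 K700E table held 150 of the clusters, SF3A2 wild type 130, Flag K700E 111 and Flag wild type 108. All 84 clusters with the 3′ mark were in SF3A2 K700E, where the series as a whole had 98.4%. SF3A2 wild type held 73 of them (86.9%, series 73.0%), Flag K700E 74 (88.1%, series 68.2%) and Flag wild type 70 (83.3%, series 65.4%). A further 22 clusters were listed in SF3A2 K700E alone, or 13.3% (8.97 to 19.4%) against 18.7% in the series, and 10 of these lay in UQCC1.

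Because the strand of each gene is known, the place of the branch point in its cluster could be read in the direction of transcription. The top-ranked branch point lay toward the 3′ end of the cluster in 158 of the 164 clusters where a nearer end could be named (96.3%, 92.2 to 98.3%). The median distance to the 3′ end was 12 nt in each of the 4 tables, while the median distance to the 5′ end was 22 or 23 nt. In the genes on the plus strand all 34 clusters followed this order, and in the genes on the minus strand 124 did and 6 did not. The clusters on these genes thus extended farther upstream than downstream of the top branch point, with the same median downstream distance in K700E and wild type. The branch points are predicted, and whether position within the cluster entered the prediction is unknown. The distances therefore cannot be read as a measured footprint, nor their likeness between genotypes as a result.

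**Figure D2:**
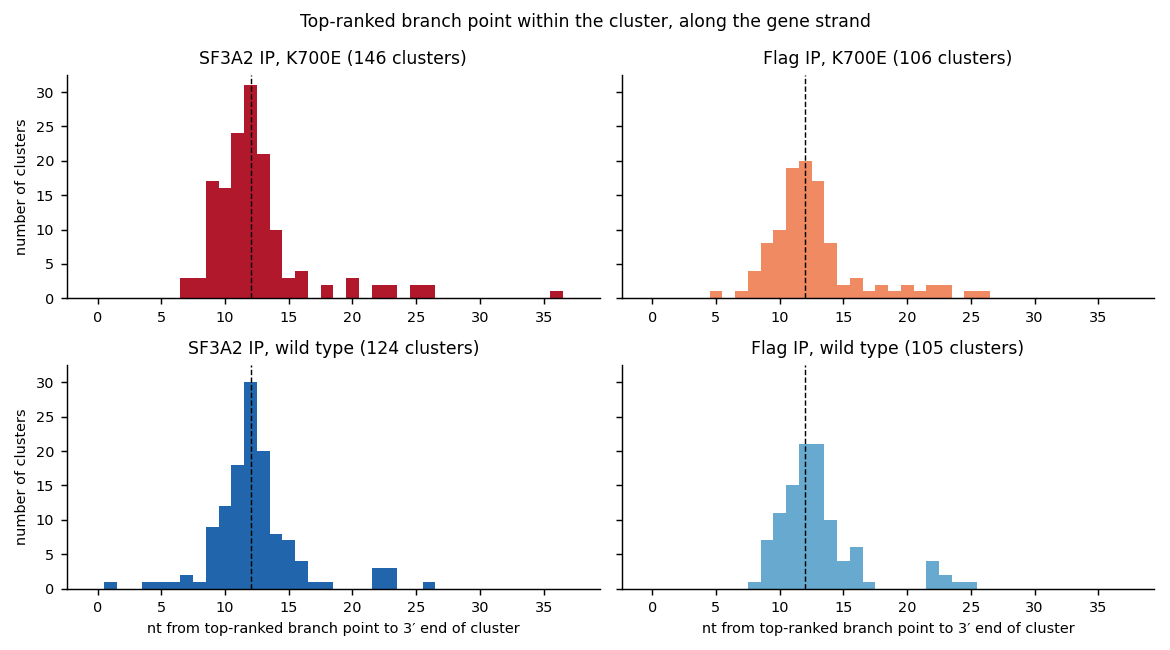
Position of the top-ranked branch point, as nt to the 3′ end of its cluster along the gene strand (x axis), against the number of clusters with a single top branch point (y axis), in K700E (top) and wild type (bottom) for the SF3A2 (left) and Flag (right) immunoprecipitations. The dashed line is the median, which was 12 nt in each panel.

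The 6 exceptions lay mostly at the ends of the spans. In ENOSF1 they were the last clusters of the span, chr18:671324-671358, chr18:670853-670886 and chr18:670626-670664. RefSeq places TYMS, the thymidylate synthase gene, across this end of ENOSF1 on the opposite strand. In DVL2 the exception was the last cluster, chr17:7128083-7128120, with its top-ranked branch points 11 to 13 nt from the upstream end on the DVL2 strand. RefSeq places ACADVL, an acyl-CoA dehydrogenase gene on the opposite strand, beside this end of DVL2. The other 2 were a BRD9 cluster with a 5′ splice site mark, listed in SF3A2 wild type alone, and a TTI1 cluster listed in SF3A2 K700E alone. Which strand these clusters came from was not tested.

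The first comparison asked which branch sites of these genes were listed in mutant and in wild-type cells. In the SF3A2 immunoprecipitation 33 of 163 clusters (20.2%, 14.8 to 27.1%) were listed for K700E only, where the whole series had 29.3%. A further 13 (7.98%, 4.72 to 13.2%) were listed for wild type only, where the series had 4.50%. In the Flag immunoprecipitation 14 of 122 clusters (11.5%, 6.96 to 18.3%) were listed for K700E only, against 17.9% in the series, and 11 (9.02%, 5.11 to 15.4%) for wild type only, against 13.0% in the series. The share for K700E only was below that of the series in both immunoprecipitations, and in SF3A2 its interval did not reach the series value. The SF3A2 share for wild type only lay above the series value, which was just outside its interval. None of these wild-type-only clusters carried the 3′ mark. They included 6 clusters with the 5′ mark found in SF3A2 wild type alone and 1 found in both wild-type tables. In SF3A2 wild type alone the members had 11 clusters of any mark. The series had 4736 such clusters, of which 2481 carried the 5′ mark and 554 the 3′ mark, so most lacked the 3′ mark there too. Over the series, SF3A2 wild type listed 86.9% of clusters with the 5′ mark and SF3A2 K700E 61.9%. Clusters of 1 gene are not independent, so these intervals are too narrow. Most clusters of a wild-type table were also listed for K700E: 117 of 130 in SF3A2 (interval 83.6 to 94.1%, series 93.6%) and 97 of 108 in Flag (interval 82.7 to 94.2%, series 84.2%).

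The genes differed in the direction of listing. UQCC1 had 11 clusters for K700E only and 1 for wild type only in SF3A2, and 3 and 0 in Flag. MAP3K7 had 5 and 1 in SF3A2 and 3 and 0 in Flag, and DVL2 had 3 and 0 in SF3A2 and 2 and 0 in Flag. BRD9 had 8 and 4 in SF3A2 but 2 and 2 in Flag. ENOSF1 went the other way, with 0 clusters for K700E only and 5 for wild type only in SF3A2, and 1 and 5 in Flag. Of the 5 in SF3A2, chr18:685901-685959 and chr18:674140-674207 carried the 5′ mark and the others had no mark. Without ENOSF1 the other genes had 33 and 8 clusters in SF3A2, or 80.5% for K700E (66.0 to 89.8%), and 13 and 6 in Flag. With it, the K700E share was 71.7% in SF3A2 (57.5 to 82.7%) and 56.0% in Flag (37.1 to 73.3%). The series had 86.7% in SF3A2, above the interval of the 9 genes but inside that without ENOSF1, and 57.9% in Flag.

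**Figure D3:**
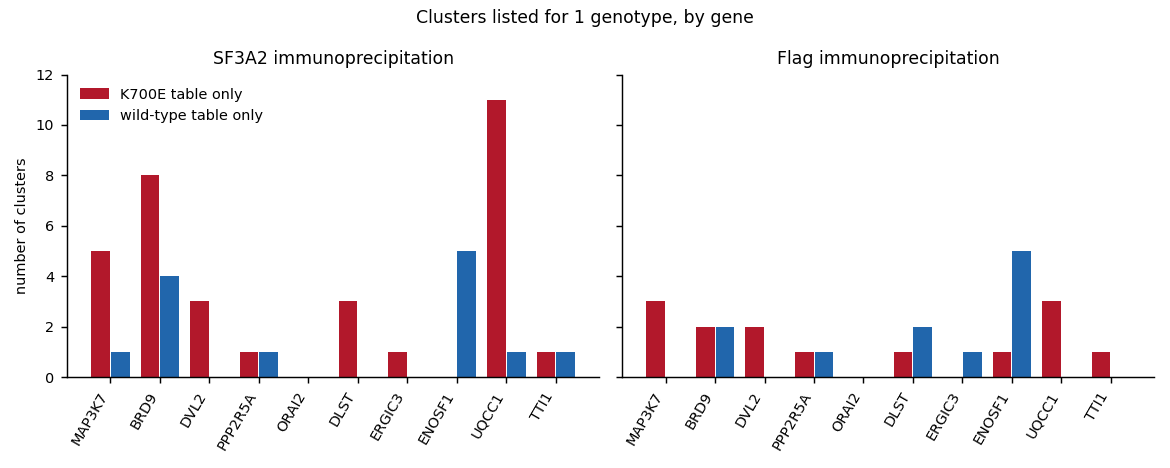
Number of clusters (y axis, from 0) listed for 1 genotype only in each gene (x axis), for the SF3A2 (left) and Flag (right) immunoprecipitations, with the K700E bar left of the wild-type bar. UQCC1 had 11 K700E-only clusters and ENOSF1 0 in SF3A2, and ENOSF1 had 5 wild-type-only clusters in each immunoprecipitation.

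The neighbourhood of ENOSF1 showed a different balance. Within 1 Mb on either side of the span, 18 clusters were listed for K700E only and 7 for wild type only in SF3A2, a K700E share of 72.0% (52.4 to 85.7%). The ENOSF1 span itself gave 0% (0 to 43.4%), so the intervals did not overlap. The series share of 86.7% was above both intervals. In Flag the flanks had 10 and 11 clusters and the span 1 and 5, with overlapping intervals. This comparison was chosen after the ENOSF1 values were seen.

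Across both immunoprecipitations 7 clusters were K700E-specific, found in the K700E tables of both antibodies and absent from both wild-type tables, or 4.24% (2.07 to 8.50%) against 5.88% of all clusters in the series. They lay in 5 genes. In MAP3K7 they were chr6:91288309-91288358 and chr6:91284768-91284797, unmarked clusters among the first 3 of the gene. The first of them had 91288314 at rank 1 in both K700E tables, tied with 91288331 in SF3A2. The cluster chr6:91284768-91284797 had its only branch point at 91284776 in both. In DVL2 they were chr17:7133271-7133303, with the top branch point at 7133282 in both tables, and chr17:7131038-7131067, with 7131048 in SF3A2 and 7131046 in Flag. Both DVL2 clusters carried the 3′ mark.

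The DLST cluster chr14:75360968-75360996, also with the 3′ mark, had its branch point at 75360987 in both K700E tables. The UQCC1 cluster chr20:33932662-33932696 was unmarked, with the branch point at 33932672. The BRD9 cluster chr5:886903-886935 carried the 3′ mark and had its branch point at 886914 in both K700E tables. It lay 33 nt upstream of another 3′ splice site cluster, chr5:886832-886870, which was listed in all 4 tables. It was the only one of the 7 with another cluster within 100 nt. The top branch points of the pair were 65.6 nt apart on average.

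In the other direction 2 clusters, both in ENOSF1, were wild-type-specific by the same rule, or 1.21% (0.333 to 4.31%) against 0.375% in the series. The cluster chr18:682020-682057 was unmarked and had its branch point at 682033 in both tables. The cluster chr18:674140-674207 carried a 5′ splice site mark and spanned 67 nt, with the top branch point at 674151. No 3′ splice site cluster of the 84 was of this class (0 of 84, at most 4.37% by the interval), while 4 of the 84 (4.76%) were of the K700E class. These were near the shares among all 3′ splice site clusters of the series, 0.249% for the wild-type class and 5.78% for the K700E class.

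The second comparison asked whether the same cluster had another top-ranked branch point in mutant cells. Of 84 clusters with a single top branch point in each of the 4 tables, 58 (69.0%, 58.5 to 77.9%) had the same one in all of them, against 71.7% in the series. In ERGIC3 this held for 5 of 5 such clusters, in BRD9 for 7 of 9 and in PPP2R5A for 8 of 11. In DLST it held for 3 of 7. A switch, meaning that the K700E tables shared 1 top branch point and the wild-type tables shared a different one, occurred in 7 of the 84 clusters (8.33%, 4.10 to 16.2%), against 5.15% in the series. The same count between immunoprecipitations was 1 (1.19%, against 1.30% in the series). For the crossed arrangement it was 0 (0 to 4.37%, against 1.01% in the series). The interval of the members included the series value in each case.

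The switches lay in 4 genes, and the K700E branch point was upstream of the wild-type one in 4 clusters and downstream in 3. The farthest upstream was in TTI1, in the 3′ splice site cluster chr20:36631189-36631231. Both K700E tables ranked 36631211 first, 9 nt upstream on the minus strand of 36631202, which both wild-type tables ranked first. The wild-type branch point was still listed in K700E, at rank 2 in SF3A2 and rank 3 in Flag, but the K700E branch point was in neither wild-type table. A second K700E-specific branch point, 36631213, lay 2 nt farther upstream at rank 3 in SF3A2 and rank 2 in Flag. In wild type the cluster instead listed 36631197 and 36631206 in both tables and in neither K700E table.

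In DLST both switched clusters were among 11. In the unmarked cluster chr14:75356545-75356585 the top branch point was 75356565 in both K700E tables and 75356571, the only one listed, in both wild-type tables, a shift of 6 nt upstream. In the 3′ splice site cluster chr14:75365025-75365056 it was 75365047 in K700E and 75365044 in wild type, 3 nt downstream. There neither branch point was listed in any table of the other genotype. Flag K700E and both wild-type tables listed only 1 branch point each for this cluster, and one not listed may only be undersampled.

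UQCC1 had 1 switch, in the unmarked cluster chr20:33982006-33982046, with 33982024 in K700E and 33982020 in wild type, 4 nt upstream. The wild-type branch point was in neither K700E table, while the K700E one was at rank 2 in SF3A2 wild type.

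ENOSF1 had 3 switches. In the 3′ splice site cluster chr18:690638-690672 the same 3 branch points were listed in all 4 tables, and the first 2 changed places: 690651 led in K700E and 690647 in wild type, a shift of 4 nt upstream in K700E. In the unmarked cluster chr18:677887-677928 the top was 677905 in K700E and 677909 in wild type, 4 nt downstream in K700E. In the 3′ splice site cluster chr18:672817-672851 it was 672828 in K700E and 672839 in wild type, 11 nt downstream on the ENOSF1 strand. This cluster is the neighbour of the 3 with the opposite orientation at the TYMS end. The K700E branch point was 23 nt and the wild-type one 12 nt from the upstream end of the cluster on the ENOSF1 strand, so on the TYMS strand the same shift would be upstream. Without ENOSF1, the switches numbered 3 upstream and 1 downstream.

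**Figure D4:**
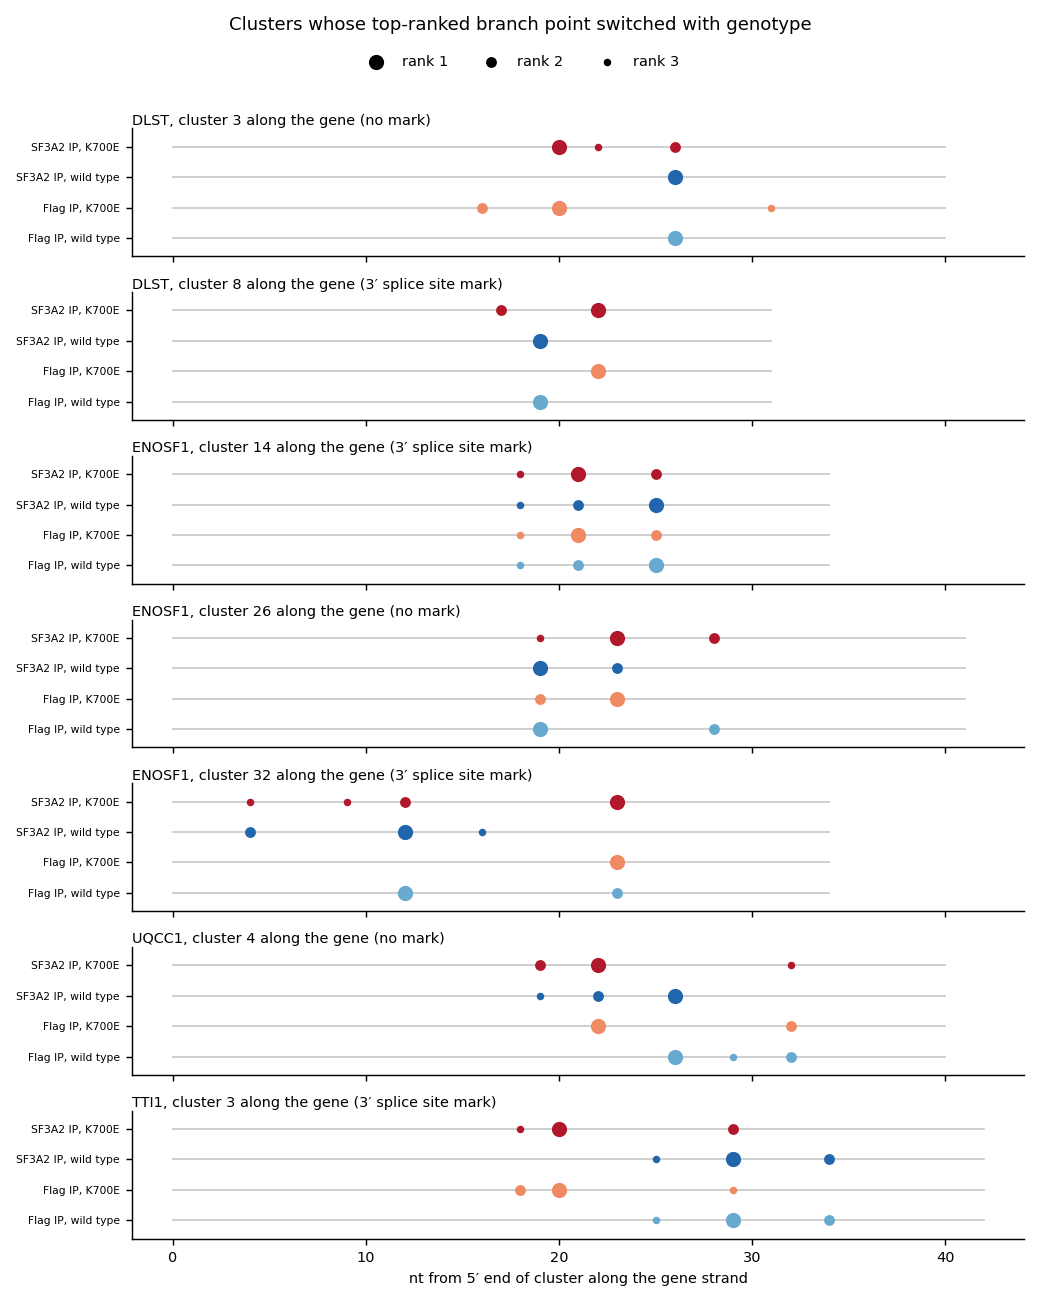
Ranked branch points in the 7 switched clusters, placed on the x axis by nt from the 5′ end of the cluster along the gene strand, with a row for each table and larger points for higher rank (rank 1 largest); the grey line is the cluster. In TTI1 the largest points sit at 20 nt in both K700E rows and at 29 nt in both wild-type rows.

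Toward or away from the nearer cluster end, the measure that needs no strand, 3 of the 7 switches had K700E nearer (42.9%, 15.8 to 75.0%), where the series had 72.0%. The interval includes the series value. Read along the strand in single immunoprecipitations, the top branch point differed between genotypes in 26 of 110 clusters in SF3A2 (23.6%, against 19.4% in the series) and 20 of 90 in Flag (22.2%, against 21.8% in the series). In SF3A2 13 of these moved downstream in K700E and 13 upstream. In Flag the numbers were 11 and 9. Upstream shifts were thus not the more frequent direction in K700E in either immunoprecipitation.

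In SF3A2, MAP3K7 had 6 clusters with a different top branch point, 4 upstream and 2 downstream in K700E, and in Flag 1, which was downstream. Among its 3′ splice site clusters the farthest shift was in chr6:91229041-91229085, where the SF3A2 K700E and Flag K700E tables both had the top branch point 19 nt from the 5′ end. The SF3A2 wild-type table had it at 32 nt, 13 nt farther downstream, and the cluster was not listed in Flag wild type. At chr6:91266362-91266398 the SF3A2 K700E top was 4 nt upstream of the SF3A2 wild-type one, but in Flag both genotypes had the same top.

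The third comparison took the branch points below the top rank as well. Within the 94 clusters of all 4 tables, 18 of 337 branch points (5.34%, 3.40 to 8.28%) were K700E-specific in both immunoprecipitations, against 5.64% in the series. In the reverse direction there were 13 (3.86%, 2.27 to 6.49%), against 2.41% in the series. UQCC1 had the most of the K700E class, with 5, all in unmarked clusters, and BRD9 had 0 of either class. The wild-type class was spread over 7 genes with 1 to 3 each. Counts of this size are near the series values in both directions.

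In MAP3K7 the 3′ splice site cluster chr6:91260277-91260318 listed 91260290 as a top branch point in all 4 tables. The branch point 91260295, 5 nt upstream, was tied with it at rank 1 in both K700E tables and stood at rank 2 in both wild-type tables. Another branch point, 91260284, was at rank 3 in both K700E tables and in neither wild-type table. At chr6:91269947-91269986 the only tie at the top was in Flag wild type, between 91269955 and 91269960. The sole top of the other tables, 91269958, stood at rank 3 in Flag wild type. In this cluster 91269966 was listed only for K700E, at rank 3 in SF3A2 and rank 2 in Flag. At chr6:91281559-91281593 the difference ran the other way, with 91281573 at rank 3 in SF3A2 wild type and rank 2 in Flag wild type and in no K700E table.

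In DVL2 the branch point 7130880 of chr17:7130872-7130905 was listed for K700E only, at rank 2 in SF3A2 and tied at rank 1 in Flag. It lay 4 nt downstream of 7130884, the only branch point of this cluster in both wild-type tables. At chr17:7133029-7133061 the K700E-specific branch point was 7133038, at rank 3 in SF3A2 and rank 2 in Flag. PPP2R5A had a K700E-specific branch point 9 nt from the 5′ end of chr1:212520638-212520671, at 212520647 and rank 3 in both tables, and a wild-type-specific one at 212533946 in chr1:212533931-212533965. These PPP2R5A clusters kept the same top branch point in all 4 tables, so the difference lay in the lower ranks alone.

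In DLST the 3′ splice site clusters chr14:75357702-75357734 and chr14:75360003-75360032 each listed 1 branch point in both wild-type tables only, at 75357725 and 75360020. In ERGIC3 the only such difference in a 3′ splice site cluster was 34130548 in chr20:34130527-34130562, listed for wild type only. ERGIC3 also had a K700E-specific branch point in an unmarked cluster, 34142780, at rank 3 in both tables. In ENOSF1 the cluster chr18:675426-675460 held 1 of each class: 675438 at rank 3 in both K700E tables, and 675431 at rank 1 in SF3A2 wild type and rank 2 in Flag wild type. The wild-type branch point 688626 of chr18:688620-688653 was at rank 2 in both wild-type tables.

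Clusters of these genes listed on average 2.37 branch points in SF3A2 K700E and 2.18 in SF3A2 wild type. The Flag tables averaged 2.10 in K700E and 2.14 in wild type. Over all clusters of the series the SF3A2 means were 2.18 in K700E and 1.87 in wild type. The Flag means of the series were 1.82 in K700E and 1.80 in wild type, lower than those of the members and in the other order. With 1 table per group these means have no error between samples. Without PPP2R5A the order in Flag turned, with 2.14 in K700E and 2.13 in wild type. In the 94 clusters of all 4 tables the SF3A2 means were 2.78 for K700E and 2.43 for wild type. Over the whole series the same means were 2.72 and 2.17. In total branch points, not means, ENOSF1 was the gene with fewer in K700E in both immunoprecipitations, 76 against 88 in SF3A2 and 60 against 66 in Flag. It also had fewer clusters listed in K700E, 28 against 33 in SF3A2 and 24 against 28 in Flag. UQCC1 had a total of 49 in K700E against 26 in wild type in SF3A2, and 26 against 20 in Flag. Its listed clusters numbered 23 against 13 in SF3A2 and 12 against 9 in Flag, so these totals follow the number of clusters as well.

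BRD9, whose mis-splicing by mutant SF3B1 is known to bring in a poison exon, had a different top branch point between genotypes in 4 clusters in SF3A2 and 1 in Flag, with 0 switches shared by both. In the downstream part of the gene, the unmarked cluster chr5:869514-869556 had its top branch point at 869534 in both K700E tables. It was listed with 869529 in SF3A2 wild type, 5 nt downstream, and was not listed in Flag wild type. This cluster was picked after its values were seen. The unmarked cluster chr5:871696-871733 was listed in all 4 tables with the top at 871704 in both K700E tables and in Flag wild type, and at 871708 in SF3A2 wild type. Where the poison exon lies relative to these clusters was not analysed here.

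Clusters with a 5′ splice site mark were counted separately. There were 13 of them (7.88%, 4.66 to 13.0%), against 5.48% in the series, in 5 genes: 5 in BRD9, 4 in ENOSF1, 2 in UQCC1 and 1 each in MAP3K7 and TTI1. SF3A2 K700E listed 6 (46.2%, series 61.9%) and SF3A2 wild type 10 (76.9%, series 86.9%). Flag K700E listed 0 (0 to 22.8%, series 4.99%) and Flag wild type 2 (15.4%, series 8.75%). In the wild-type SF3A2 table alone there were 6 (46.2%, 23.2 to 70.9%), against 36.8% of such clusters in the series, and 11 were in neither Flag table, a class that held 89.0% of such clusters in the series. Each lay downstream of another cluster of its gene, which holds for any cluster but the first of a gene. The nearest upstream cluster without a 5′ mark carried the 3′ mark for 8 of the 13 and no mark for the others. The gap to that cluster, read on the gene strand, was 121 nt in the median, with a range of 35 to 438 nt. Of the 13 gaps, 11 were under 200 nt, and no series value was computed. The 438 nt gap belonged to chr18:670853-670886, which had the opposite orientation at the TYMS end, so its upstream neighbour is uncertain.

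The MAP3K7 example was chr6:91261749-91261787, listed in SF3A2 wild type alone, 138 nt downstream of the 3′ splice site cluster chr6:91261925-91261958. That upstream cluster was listed in all 4 tables with the same 3 branch points in the same order. In BRD9 the cluster chr5:884027-884071 was 1 of the 2 found in a Flag table, with its top at 884041 in SF3A2 K700E and at 884043 in SF3A2 wild type and Flag wild type. The other was the ENOSF1 cluster chr18:674140-674207 described above. Being found with the SF3A2 antibody and seldom with Flag was shared by such clusters over the whole series.

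The immunoprecipitations were compared within each genotype. In K700E cells 110 clusters were in both tables, 40 in SF3A2 only and 1 in Flag only. In wild-type cells 103 were in both, 27 in SF3A2 only and 5 in Flag only. The members in both tables were 72.8% in K700E and 76.3% in wild type, where the series had 62.1% and 68.8%. The Flag-only share was 0.662% in K700E and 3.70% in wild type, where the series had 0.731% and 6.57%. Where both tables had a single top branch point, it differed between immunoprecipitations in 13 of 104 clusters in K700E (12.5%, 7.45 to 20.2%) and in 13 of 96 in wild type (13.5%, 8.09 to 21.8%). The series shares were 14.6% in K700E and 17.1% in wild type, inside the members' intervals. Between genotypes the shares were higher, 23.6% in SF3A2 and 22.2% in Flag, with intervals (16.7 to 32.4% and 14.9 to 31.8%) that overlapped those between antibodies. Switches repeated in both pairs numbered 7 by genotype and 1 by antibody.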

How the data were processed

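The submitters' processing notes name cutadapt, STAR (2.7.6a) and the hg19 build, and inserts of 24 to 55 nt were sequenced per the labels. The settings used to call clusters and branch points are unknown here. The 4 deposited tables hold, per the file headers, cluster positions (hg19 coordinates, not a measured signal) and a rank score from 1 to 3 for each branch point. The authors deposited 1 table per genotype for the 3 SF3A2 libraries. HEK293 is named in 1 protocol label, whereas the cell line labels give K562. Of the rows, 1 without a cluster identifier was left out.

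Clusters wholly inside the 10 spans were kept. Distances run along the gene strand. All 10 genes were found in RefSeq (GRCh38.p14) by symbol with the same strand, and it was used for neighbour names only. No hg19 genome was used here, so no sequence is shown and a planned list of further known targets was not used. The members and lists were chosen with earlier results of these data known. Named clusters were those listed for 1 genotype in both immunoprecipitations, those with a switch, and 3′ splice site clusters of all 4 tables with a genotype-specific branch point (at most 3 per gene). Others were picked after their values were seen. No p-value was computed, since no group had replicate values. The counting was tested on simulated data. The tools were matplotlib 3.10.9, scipy 1.17.1, numpy 2.4.6, pandas 2.3.3 and Python 3.11.15. Alternatives covered the span rule, the mark, cluster length, ties, tolerance of position and each gene left out.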

Additional observations from a re-analysis of the deposited data

Results flagged for a closer look

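In 3 cases the difference between genotypes ran in opposite directions in the SF3A2 and the Flag immunoprecipitation. None of these differences between immunoprecipitations was tested, since each combination has 1 table. In DLST the number of K700E-only clusters minus wild-type-only clusters was 3 in SF3A2 (3 and 0) and -1 in Flag (1 and 2). In ERGIC3 it was 1 in SF3A2 (1 and 0) and -1 in Flag (0 and 1). In the ENOSF1 cluster chr18:675426-675460 the top-ranked branch point was 21 nt from the 5′ end in both K700E tables. It was at 29 nt in SF3A2 wild type and at 17 nt in Flag wild type, so the K700E minus wild-type shift was -8 nt in SF3A2 and 4 nt in Flag.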

How the results depend on the processing

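Of 111 recalculations of 9 results, 106 stayed within the 95% interval of the reported value and 5 did not. With 3′ splice site clusters only, the K700E share of clusters listed for 1 genotype was 100% in SF3A2 (11 of 11), against 71.7%. The SF3A2 share of the series, 86.7%, covers clusters of any mark and is not a like value for these. Of 71951 3′ splice site clusters in the series, SF3A2 K700E listed 70777 and SF3A2 wild type 52502. Found in SF3A2 K700E alone were 11472 of them, and in SF3A2 wild type alone 554. The K700E share was also 100% for members' 3′ splice site clusters listed for 1 genotype in both immunoprecipitations (4 of 4), against 77.8%. In the series 4157 3′ splice site clusters were of this K700E class and 179 of the wild-type class. Without ENOSF1 the share in both immunoprecipitations was again 100% (7 of 7), as both wild-type-specific clusters lie there. Over all clusters the series had 7217 of the K700E class and 460 of the wild-type class, so most were of the K700E class there too. Leaving out genes was an alternative chosen after seeing the data. The Flag values varied too: their K700E share was below the wild-type share with clusters of 30 to 38 nt, at 38.5% (5 of 13) against 56.0%. The difference in branch points per cluster in SF3A2, K700E minus wild type, was 0.189 and became 0.274 without ENOSF1. In Flag it was -0.0398 and became 0.0165 without PPP2R5A and 0 without MAP3K7. Asking for a changed top branch point in 1 immunoprecipitation instead of both raised the share from 8.33% to 23.6% in SF3A2 alone and 22.2% in Flag alone. The looser rule also took in more clusters, 110 in SF3A2 and 90 in Flag against 84. In the series the share was 5.15% by the stricter rule, 19.4% in SF3A2 alone and 21.8% in Flag alone. What raised the share was not tested. The downstream share of switches, 42.9% as reported, ranged up to 55.0% (Flag alone) and down to 1 of 4 switches without ENOSF1, all within the interval of the reported value. No paired analysis was possible because the replicates of the SF3A2 groups were deposited as 1 pooled table per genotype. Leaving out a library was not possible for the same reason. Without read numbers, the effect of depth on listing cannot be measured.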

Other observations

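Close pairs of clusters were found in 4 of the genes. Neighbouring clusters lay within 100 nt of each other in 12 places. No series value is given for this count, so it cannot be called high or low for these genes. In TTI1 the 3′ splice site clusters chr20:36625455-36625497 and chr20:36625366-36625405 were 50 nt apart, the first missing from Flag wild type and the second listed in all 4 tables. In BRD9 the unmarked cluster chr5:881368-881402, listed in SF3A2 K700E alone, lay 30 nt upstream of chr5:881304-881338, which was in all 4 tables. In UQCC1 a pair 18 nt apart, chr20:33934628-33934660 and chr20:33934580-33934610, was listed in SF3A2 K700E alone.

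The regions around the genes also differed in the balance of genotype-specific clusters. Within 1 Mb of PPP2R5A 8 clusters were listed for K700E only and 24 for wild type only in Flag (K700E share 13.3 to 42.1% by its interval); around BRD9 the share was 70.7% (55.5 to 82.4%, 29 against 12) and around TTI1 69.6% (55.2 to 80.9%, 32 against 14). These regions had the lowest and the highest Flag shares of the 10. Around the other genes the Flag share lay between 44.0% (ORAI2) and 62.1% (MAP3K7). The series had 57.9% in Flag, inside the intervals around BRD9 and TTI1 and above that around PPP2R5A. In SF3A2 the shares around PPP2R5A, BRD9 and TTI1 were 73.5%, 89.2% and 77.6%, where the series had 86.7%. The region around ORAI2, which itself had no cluster, held 147 clusters. Inside the spans of PPP2R5A, BRD9 and TTI1 at most 12 genotype-specific clusters were counted per immunoprecipitation.

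A second-ranked branch point 4 nt from a sole top one was found in 26.4% of such clusters in SF3A2 K700E and 33.3% in SF3A2 wild type. In Flag the shares were 33.3% in K700E and 26.8% in wild type. Where the second rank was tied, only the tied branch point with the lowest coordinate was counted, so a tied one 4 nt away can be missed. In the series the shares were 27.4% in SF3A2 K700E, 28.2% in SF3A2 wild type and 29.7% in Flag wild type, and Flag K700E had 11133 of 37061 clusters.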
